A study of Danio rerio with 9 samples.

Results

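The regions described here had an ATAC-seq peak in most sperm libraries of uninjured zebrafish (Danio rerio) males and in at most 1 library of males with a cardiac injury. They number 939 of the 66602 regions in the equal-length peak lists of the series, or of 52296 on chromosomes 1 to 25 without chromosome 4. Sperm of males had been profiled by ATAC-seq 7 days after a cardiac cryoinjury, in which part of the heart is frozen (5 libraries, called injured). Sperm of uninjured control males was profiled too (4 libraries), with 100000 spermatozoa per library in both groups. The labels give no strain, age, allele or batch, and they do not say whether a library came from 1 male or from several. ATAC-seq inserts adapters into open DNA with a transposase, and a peak is a stretch where such insertions pile up.

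Sperm chromatin of zebrafish is known to keep nucleosomes, in contrast to the protamine-packed sperm of mammals. Open sites in sperm are studied as a route by which a father's condition may be passed to the embryo. A difference in open sites between sperm of injured and uninjured males is what the design asks about. Peak lists of whole sperm samples cannot tell a site that is open in fewer spermatozoa from one that is less open in each.

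The choice rested on equal-length lists, cut to the best-scored peaks so that all matched the shortest deposited list, that of injured library 3. Peaks overlapping by 1 bp or more were merged into regions, and a region was kept if 3 or 4 of the 4 control lists and 0 or 1 of the 5 injured lists had a peak in it. The score is the authors' own value per peak, its scale is not given in the sources used here, and it served only to rank peaks within a list. Since the groups themselves made the choice, the number of regions and their detection in the 2 groups are a description and carry no test. Of the 7642 regions found in 3 to 5 lists, which could have met the rule, 12.3% did. The mirror rule, with 4 or 5 injured lists and 0 or 1 control list, was met by 301 regions, 6.13% of the 4914 found in 4 to 6 lists. These shares have different ceilings, because the groups differ in size, and no difference is read from them.

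Most of the 939 regions sat at the edge of the rule. In 507 of them (54.0%) 3 control lists and 1 injured list had a peak, and in 265 (28.2%) 3 control lists and no injured list did. All 4 control lists had a peak in 167 regions, 127 of them with 1 injured list and 40 (4.26%) with none. Just outside the rule lay 788 regions with 3 or 4 control and 2 injured lists, and 2902 with 2 control and 0 or 1 injured lists. In 120 of the 939 regions the weakest counted control peak was among the last 1000 ranks kept. The lowest was at rank 15502, next to the end of the lists. No such share was taken for other regions. The number depended on the list length, with 605 regions from 10000 peaks per list and 2972 from the lists as deposited (19.7% of the 15092 regions in 3 to 5 lists). Without control library 1, 2, 3 or 4, where 2 of 3 control lists suffice, it was 2483, 2569, 2313 and 2212. Without injured library 1, 2, 3, 4 or 5 it was 1339, 1303, 1148, 1279 and 1209. Among the 100 regions of best median rank in control libraries, control library 2 had a peak in only 39. Injured libraries 1 and 2 had one in 48 and 26 of them.

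The 9 libraries contributed unequally. Injured libraries 1 to 5 had a peak in 171, 188, 70, 131 and 74 of the 939 regions, and control libraries 1 to 4 in 734, 632, 786 and 832. Control library 2 was the one most often without a peak: it was the missing one in 307 (39.8%) of the 772 control-favoured regions with 3 control lists, and in 856 (33.8%) of all 2533 regions with 3 control lists, whatever the injured lists. Injured libraries 1 and 2 were the ones most often with one. The order of the injured libraries nearly followed their list lengths, which were 29622, 25718, 24018 and 17613 peaks for libraries 1, 2, 4 and 5, with library 3 the shortest. Control lists 1 to 4 were all longer than these, with 31611, 34354, 30126 and 45277 peaks. The lowest score kept at equal length was 29, 31, 13, 28 and 18 in injured libraries 1 to 5, and 32, 34, 29 and 42 in control libraries 1 to 4. Read depth per library is unknown, and the part of depth or list length in these counts was not tested.

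**Figure D1:**
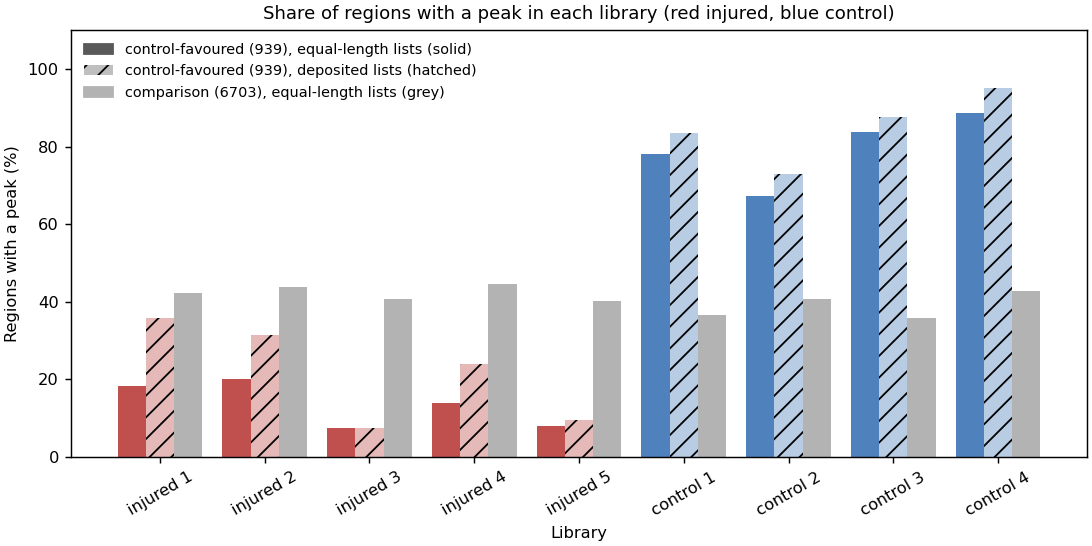
Percentage of regions with a peak (vertical axis) in each of the 9 libraries (horizontal axis), for the 939 control-favoured regions in the equal-length lists (solid) and in the deposited lists (hatched), and for 6703 comparison regions (grey). The control-favoured regions are detected at 7.45% to 20.02% in the injured libraries and at 67.3% to 88.6% in those of controls, by the rule itself, while the grey bars lie between 35.7% and 44.5% in all 9.

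In the deposited lists, peaks ranked below the equal-length limit filled part of the gaps. Injured libraries 1 to 5 then had a peak in 336, 295, 70, 225 and 88 of the 939 regions, and control libraries 1 to 4 in 783, 685, 822 and 894. Injured library 3 could gain none, since its whole list was already in use. The 380 injured peaks gained lay at ranks 15517 to 29393, with a median of 19557, and fell in 318 regions. Comparison regions, those in 3 to 5 lists that do not meet the rule, gained peaks too in every library but injured library 3. As deposited, injured libraries 1 to 5 had a peak in 55.6%, 52.9%, 40.6%, 52.7% and 42.0% of them. Control libraries 1 to 4 had one in 52.5%, 57.9%, 50.6% and 69.6%. Of the 939 regions, 193 (20.6%) had no peak in any injured list as deposited, out of the 305 with none at equal length, which alone could. Of all 939, 713 (75.9%) had at most 1, and 4 had 4. All 4 control lists had a peak in 367 (39.1%), and 52 regions (5.54%) combined 4 control lists with 0 injured lists. Of the 40 regions with that pattern at equal length, 18 kept it. The 20.6% was 10.4% in the better-ranked 50% of the equal-length lists and 36.9% for regions chosen from the deposited lists. In that last setting the rule itself used the deposited lists, so its share is not a like comparison.

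The 4 regions that led those 18, ordered by median rank in control libraries, are a view of the clearest absence in injured libraries. That absence was read in deposited injured lists that were all shorter than the control lists. On chromosome 17, positions 3016707 to 3016922 (GRCz11) carried no peak in injured libraries 1 to 5, against scores of 127, 127, 59 and 119 in control libraries 1 to 4. On chromosome 3, positions 62549563 to 62549829 had no injured peak, against 35, 80, 132 and 103 in control libraries 1 to 4. Positions 53366558 to 53367030 of chromosome 8 had no injured peak, against 72, 82, 145 and 71. Of these 12 control peaks the lowest-ranked was the peak scored 35, at rank 12628 in control library 1. The lowest score kept in that library was 32. The fourth, on chromosome 5 at 8243741 to 8244378, had no injured peak, against 66, 53, 86 and 104 in control libraries 1 to 4. No gene is named for these places, because an annotation of GRCz11 was not used here, and no sequence is shown for the same reason.

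Most regions with the strongest peaks had another pattern: they lacked a peak in control library 2, and many had one in injured library 1 or 2. On chromosome 24, positions 1121139 to 1121933 had no peak in any injured library as deposited, against scores of 367, 2041 and 2527 in control libraries 1, 3 and 4 and no peak in control library 2. These were ranks 526, 125 and 117, and this region had the best median rank of all 939. Next came chromosome 5, positions 28522637 to 28524021, with a score of 190 in injured library 2 alone of the injured, against 895, 209 and 2343 in control libraries 1, 3 and 4. Control library 2 had no peak there either. Of the regions with 3 control lists and no injured list, the next by the same order were on chromosome 14 at 19546940 to 19547343, chromosome 17 at 40493805 to 40494129 and chromosome 2 at 19481591 to 19481763. Each lacked a peak in all 5 injured libraries and in control library 2. The 1 on chromosome 14 scored 38, 884 and 262 in control libraries 1, 3 and 4, a range wide enough to put the same place at rank 10436 in one library and 257 in another.

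Narrow, strong peaks shared by injured library 1 and control libraries 1, 3 and 4 followed directly in rank. On chromosome 23, positions 16000807 to 16000981, a stretch of 175 bp, scored 858 in injured library 1, against 745, 794 and 751 in control libraries 1, 3 and 4. On chromosome 6, positions 8699525 to 8699718 scored 1313 in injured library 1, against 519, 772 and 840 in the same control libraries. On chromosome 3, positions 55365534 to 55365740 scored 561 in injured library 1, against 529, 604 and 662. At each of these places injured libraries 2 to 5 and control library 2 had no peak in their deposited lists. The ranks were 375, 232 and 544 in injured library 1, against 263 to 371 in the 3 control libraries, so these were among the better peaks of each list.

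**Figure D2:**
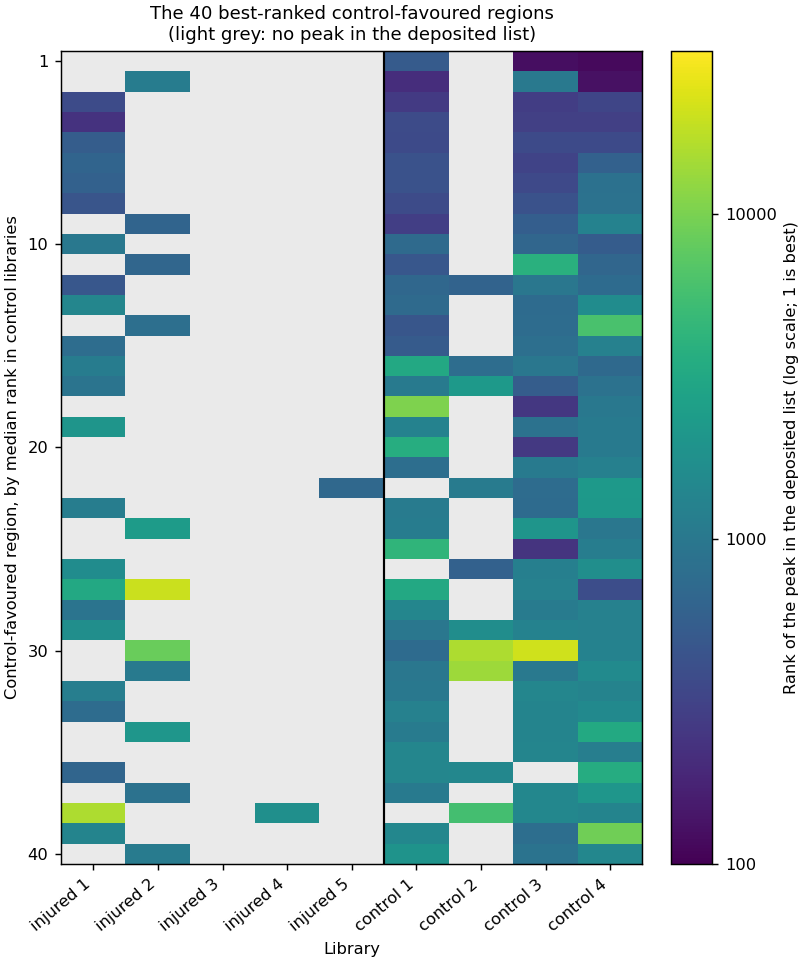
Rank of the best peak in the deposited list (colour, log scale, 1 is best) for the 40 control-favoured regions with the lowest median rank in control libraries (rows) in 9 libraries (columns, injured left of the line). Light grey marks no peak, and fills most of the columns of injured libraries 2 to 5 and of control library 2.

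The 939 regions fell into 30 combinations of libraries, all that the rule allows. Control libraries 1, 3 and 4 alone accounted for 92 regions, the same 3 with injured library 1 for 81, and the same 3 with injured library 2 for 68. Among all 2225 regions found in exactly 4 lists, on the same chromosomes and with any pattern, the combination of these 3 control libraries with injured library 1 was the most frequent of 126, and that with injured library 2 came second, ahead of the 40 regions of all 4 control libraries without an injured one. Places 4 to 7 also combined 3 control libraries with 1 injured library, at 34, 33, 31 and 29 regions. Place 8, of injured libraries 1 and 2 with control libraries 3 and 4, was level at 29. Of the 81 regions, 64 (79.0%) had no peak in the other 5 libraries as deposited either. Of the 68 with injured library 2, 41 (60.3%) had none in their other 5, and this share was not taken for further combinations. The scores of the 81 regions had medians of 79 in injured library 1 and of 75, 70 and 78 in control libraries 1, 3 and 4.

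**Figure D3:**
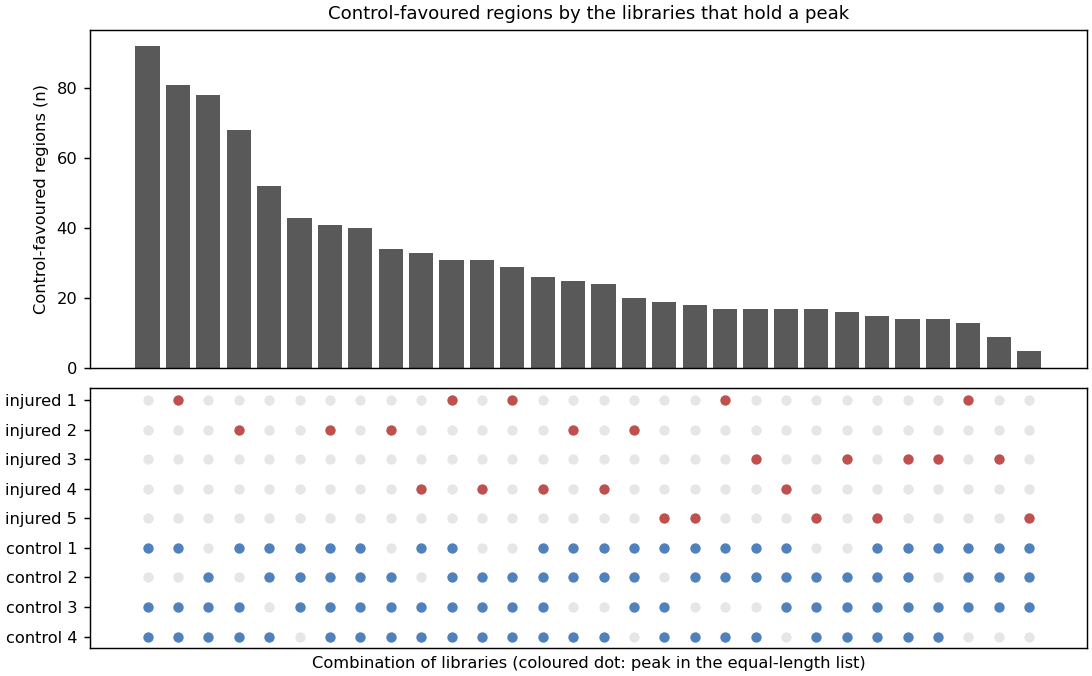
Number of control-favoured regions (upper axis) for each of the 30 combinations of libraries, with a coloured dot below for each library that had a peak (injured red, control blue). The 4 tallest bars stand at 92, 81, 78 and 68 regions, and 3 of them lack control library 2.

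The contribution of these libraries depended on peak strength. Among the 100 regions of best median rank in control libraries, injured libraries 1 to 5 had a peak in 48, 26, 0, 4 and 5, and control libraries 1 to 4 in 88, 39, 91 and 99. Among the regions placed after the first 300, the shares were 12.99%, 18.2%, 9.23%, 15.8% and 8.45% for injured libraries 1 to 5 and 77.3%, 70.4%, 82.5% and 85.6% for control libraries 1 to 4. Control library 2 was thus missing more often, and injured library 1 present more often, among the strong control-favoured regions than among the weak ones. In 53 of the first 100, control library 2 and injured libraries 3, 4 and 5 all lacked a peak in their deposited lists, against 14.9% of the regions after the first 300. Rank was part of the rule, and comparison regions were not split by strength. Whether these contrasts are particular to control-favoured regions was therefore not tested. Strong regions were also narrower, with a median of 332 bp in the first 100 and 439 bp in the later ones.

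A library that took no part in the choice gives a view that the rule did not fix. The rule was applied to 8 libraries at a time, and the ninth was read at the regions so chosen and at comparison regions found in the same number of the 8 lists without meeting the rule. Injured libraries 1 to 5 had a peak in 42.6%, 42.4%, 24.3%, 36.8% and 28.5% of the regions chosen without them, which differed from their comparison regions by 7.08, 4.88, -9.68, -2.83 and -7.18 percentage points. Control libraries 1 to 4 had a peak in 29.8%, 24.8%, 33.9% and 37.9%, with differences of 6.08, -3.06, 11.8 and 11.5 percentage points. The mean difference was -1.55 ± 7.34 over the 5 injured libraries and 6.59 ± 6.95 over the 4 control libraries (SD), and the groups overlapped. Injured libraries 1 and 2 lay above their comparison regions, as control libraries 1, 3 and 4 did, and control library 2 lay below, as injured libraries 3, 4 and 5 did. Among injured libraries the differences ran in the order of list length, from injured library 1 with 29622 peaks down to injured library 3 with the shortest list. Among control libraries they did not. The part of list length was not tested, and no p is given because the 9 choices overlap.

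**Figure D4:**
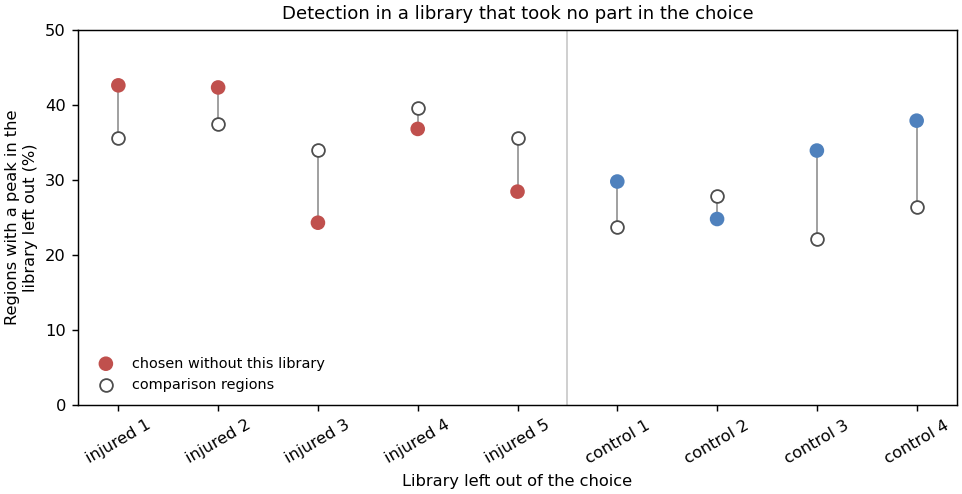
Percentage of regions with a peak in the library left out of the choice (vertical axis), for regions chosen by the rule from the other 8 libraries (filled, red injured, blue control) and for comparison regions of the same number of lists (open). Filled points lie above open ones in injured libraries 1 and 2 and control libraries 1, 3 and 4, and heights are not comparable between the groups because a different number of lists remains.

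In rank, the control-favoured regions stood above the comparison regions, the 6703 regions of 3 to 5 lists that do not meet the rule. Median rank was 4865, 5617, 6425, 7536 and 6817 in injured libraries 1 to 5, where the comparison regions had 7784, 7935, 7086, 7873 and 7746. In control libraries 1 to 4 it was 6447, 7123, 6906 and 7028, where the comparison regions had 7946, 8016, 7740 and 8058. A lower number is a better rank, so the peaks were better placed in 9 of 9 libraries. Injured library 1 had the largest gap. Rank was part of the rule, and the sets were not matched for the number of lists. By the rule, a control-favoured region with an injured peak is in 4 or 5 lists, while comparison regions are in 3 to 5. The gaps are therefore a description.

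The regions were compact. Their median width was 428 bp, with quartiles of 305 and 570 bp and extremes of 163 and 2060 bp, against a median of 474 bp for the comparison regions and 582 bp for the injured-favoured ones. Merged width grows with the number of lists, so single peaks are the fairer measure. Member peaks had median widths of 244, 293, 279, 247 and 223 bp in injured libraries 1 to 5, against 238, 318, 292, 280 and 243 bp for comparison peaks. In control libraries 1 to 4 they had 252, 274, 245 and 303 bp, against 270, 314, 264 and 334 bp. They were narrower in 8 of 9 libraries, injured library 1 being the exception. The widest region, on chromosome 13 at 36553413 to 36555472, scored 56 in injured library 2, against 34, 46 and 271 in control libraries 1, 3 and 4. Next in width were chromosome 8 at 45409019 to 45410979 and chromosome 17 at 39777817 to 39779712, with 1961 and 1896 bp. Both had a peak in all 4 control lists as deposited, and in 1 and 2 injured ones.

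The regions were spread over all 24 chromosomes considered. They numbered 19 on chromosome 24 and 65 on chromosome 7, and their density ran from 0.451 per Mb on chromosome 24 to 1.14 per Mb on chromosome 11, counted to the last peak of each chromosome. As a share of the regions in 3 to 5 lists they were lowest on chromosome 24 (7.95%) and highest on chromosome 6 (17.3%), around 12.3% for all chromosomes. Within 1 Mb of a chromosome end lay 6.82% of them, against 6.505% of the comparison regions, and within 5 Mb 28.9% against 28.5%. Chromosome ends thus held about the same share of both. The share within 1 Mb was 5.25% for regions chosen from the lists as deposited. It was 15.0% for the 40 regions with all control and no injured lists. Regions found in all 9 lists were nearer: 82 of the 939 (8.73%) lay within 10 kb of such a region, against 4.77% of the comparison regions and 1.99% of the injured-favoured ones. The median distance to one was 357 kb, against 438 kb for the comparison regions and 451 kb for the injured-favoured ones. Any other region in 3 or more lists was about as far from both in the median, at 20.9 kb against 21.4 kb for the comparison regions. Within 10 kb of one lay 35.0% against 32.6%, and within 1 kb 11.8% against 8.58%.

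Most of the regions stood alone, and a few formed groups. Within 50 kb of another control-favoured region lay 155 (16.5%), 106 of them in 53 pairs. Within that distance of another region of their own set lay 58.6% of the 6703 comparison regions and 7.64% of the 301 injured-favoured ones, and since such a share moves with the number of regions in a set, the 3 shares cannot be compared. The share of control-favoured regions was 35.3% in the lists as deposited, 25.02% without injured library 1, and 28.3%, 33.5%, 29.4% and 31.6% without control library 1, 2, 3 or 4, and no region had such a neighbour when all control and no injured lists were asked for. The 3 largest groups, on chromosomes 13, 16 and 25, held 8, 6 and 5 regions. Of the 604 windows of 1 Mb with a region, 403 held 1 and 12 held 5 or more. Windows at 15 to 16 Mb of chromosome 13, 36 to 37 Mb of chromosome 16 and 26 to 27 Mb of chromosome 25 held 10 each, of 21, 29 and 48 regions in 3 to 5 lists.

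The group on chromosome 13 spans 87.1 kb, from 15513547 to 15600616. Over its 24 regions of any pattern, injured libraries 1 to 5 had a peak in 19, 2, 0, 9 and 2, and control libraries 1 to 4 in 16, 5, 20 and 14. Injured library 1 was therefore as full there as control libraries 1, 3 and 4, and control library 2 was nearer to injured libraries 2 and 5. Its first region, 15513547 to 15514166, scored 172 in injured library 1, against 97, 172 and 74 in control libraries 1, 3 and 4. The region at 15564020 to 15564624 scored 87 in injured library 1, against 141, 58, 81 and 113 in control libraries 1 to 4. Injured library 1 had a peak in 5 of the 8 regions, and injured library 4 filled the region at 15542812 to 15543244 with a score of 67, against 85, 91 and 69 in control libraries 1, 3 and 4. Injured library 2 filled the region at 15593192 to 15593565 with 54, against 35, 70 and 48 in the same control libraries. The last, at 15600203 to 15600616, had a peak in all 4 control lists, scored 49, 34, 71 and 94. Injured library 1 had peaks scored 23 and 24 there, both below the equal-length limit. The regions between these at 15527950 to 15528553, 15558240 to 15558716 and 15566941 to 15567397, repeated the pattern of the first at equal length, with 78, 168 and 109 in injured library 1.

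The group on chromosome 25, 61.2 kb from 26078951 to 26140188, had the same shape. Over its 24 regions injured libraries 1 to 5 had a peak in 16, 2, 0, 4 and 2, and control libraries 1 to 4 in 14, 2, 13 and 14. Of its 5 control-favoured regions, 4 were shared by injured library 1 and control libraries 1, 3 and 4. The group on chromosome 16, 60.4 kb from 36336923 to 36397323, differed: control libraries 1 and 2 had a peak in all 6 of its control-favoured regions, control libraries 3 and 4 in 3 and 4, and injured libraries 1 to 5 in 1, 0, 2, 2 and 0. It also held a few regions with a peak in every library: 3 of its 27 regions were found in all 9 lists, against 0 of 24 in each of the other 2 groups. These 3 groups were singled out for their size, so their library patterns are examples.

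**Figure D5:**
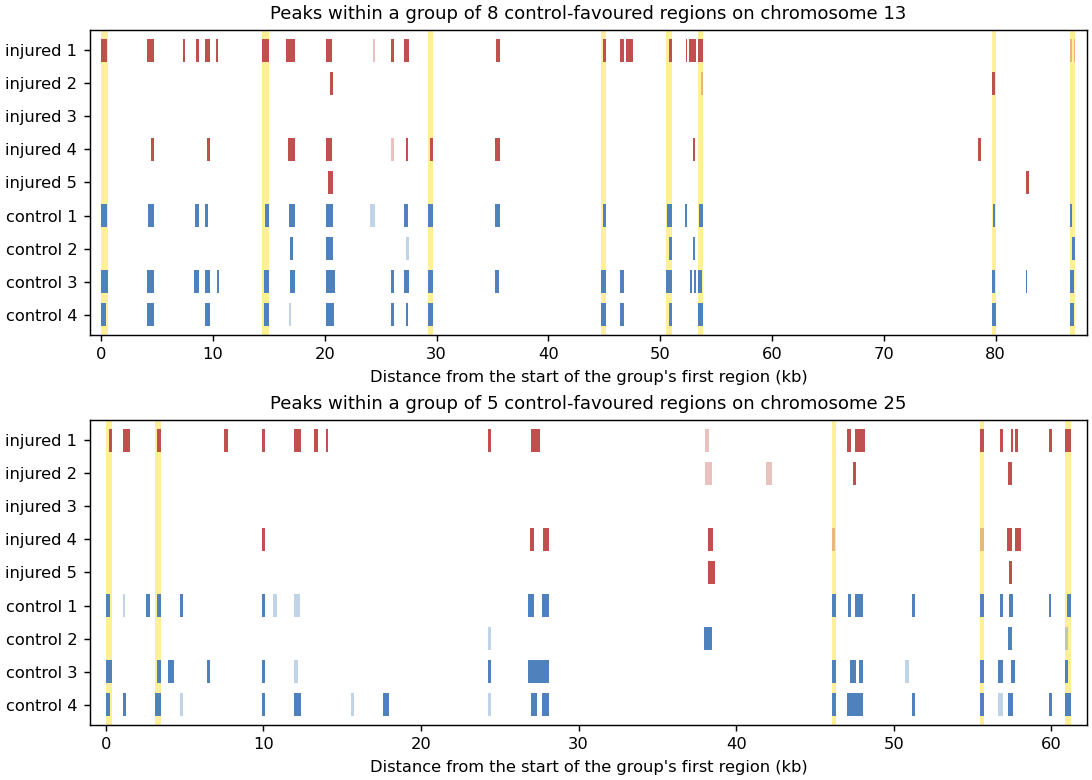
Peaks of each library (rows, injured red above control blue) along 2 groups of control-favoured regions (yellow bands), by distance in kb from the start of the group's first region. Pale bars are deposited peaks below the equal-length limit. Only groups holding regions shared by injured library 1 and control libraries 1, 3 and 4 alone were drawn, which leaves out chromosome 16. These libraries have peaks along both stretches, while injured library 3 has none.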

How the data were processed

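ATAC-seq peak lists of 9 sperm libraries (5 injured, 4 control) were used. Each deposited list gives position and a score per peak, as the authors wrote it. The score has a lowest value of 13 in the lists and no stated scale. Among the tools in the submitters' processing notes are MACS2 (a peak caller), Bowtie2 (an aligner) and Trim Galore, and the build there is GRCz11. The sources used here do not give read shifting, duplicate handling or the peak threshold. Lists were made per library, so replicates could be compared. They hold no read totals, so depth is unknown.

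Peaks were ordered by score, then width, then sequence and start, with Python 3.11.15, pandas 2.3.3 and numpy 2.4.6. Equal-length lists, each as long as the shortest, were merged at 1 bp of overlap. The rule was tested on simulated lists. Comparison regions are those of 3 to 5 lists that do not meet the rule. The rule, the regions and all comparisons were chosen with earlier results of these data known. The order of named regions is fewest injured lists as deposited, then median rank in control lists, the first 4 for each of 4 patterns, with the 3 widest and the largest group. The groups of chromosomes 16 and 25 were added after their values were seen. Since the choice used the comparison of the groups, no p-value was computed. Alternatives were other list lengths, overlaps and tie orders, a stricter rule, chromosome 4 included and each library left out.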

Additional observations from a re-analysis of the deposited data

Results flagged for a closer look

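Among 42 groups of values per library 2 had a library far from the others, where chance gives about 1 in 20, or 2.1. The highest score in a control-favoured region was 1313 in injured library 1, against 98 to 382 in the other injured libraries. The median rank of peaks in comparison regions was 7086 in injured library 3, lower than the 7746 to 7935 of the other injured libraries, and this library has the shortest list.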

How the results depend on the processing

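The number of control-favoured regions was 605 with 10000 peaks per list, 481 in the better-ranked 50% of the equal-length lists, 2972 in the lists as deposited and 40 when all control and no injured lists were asked for. Leaving out 1 library gave 1148 to 2569 in place of 939, since fewer lists then have to agree. The share without an injured peak in the deposited lists was 13.7%, 10.4%, 36.9% and 45.0% under those 4 settings, and 19.2% to 30.5% without 1 library, in place of 20.6%. Where an injured library was left out, absence was counted in the 4 remaining injured lists only, which is not a like measure. Regions of control libraries 1, 3 and 4 with injured library 1 alone numbered 160 in the lists as deposited and 90 to 133 without 1 library, in place of 81. With injured library 2 alone they numbered 45, 44 and 161 with 10000 peaks, the better-ranked 50% and the lists as deposited, and 84 to 109 without 1 library, in place of 68. These 2 counts were tried under other settings after the data had been seen. Against comparison regions of all patterns, the 9 differences in left-out libraries kept their signs and were smaller in size. Those comparison regions include the chosen ones, so this setting could hardly change a sign and is no independent check. No paired analysis was possible because the results come from no test and the labels tie no injured library to a control library. Unknown read depth limits every absence: a place without a peak is one where none was called.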

Other observations

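Outside the chromosomes considered, 96 regions of chromosome 4 and 173 on other sequences met the same rule. Of those on chromosome 4, 2 were shared by injured library 1 and control libraries 1, 3 and 4, 10 by injured library 2 and the same control libraries, and none by the 4 control libraries alone. On the other sequences these numbers were 12, 15 and 9.

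The injured-favoured regions of the mirror rule were also counted by library. Of the 228 with 1 control list, control library 2 supplied 89 (39.0%), and control libraries 1, 3 and 4 supplied 58, 33 and 48. Among regions in exactly 4 lists with a single control list, control library 2 was also the control library found most often. The 39.0% is therefore not read as particular to injured-favoured regions. Of the 248 with 4 injured lists, injured libraries 1 to 5 were the missing one in 57, 55, 49, 36 and 51, and no base share was taken for these.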
